A study of Saccharomyces cerevisiae with 16 samples.

Results

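The genes described here are those for the proteins of the large (60S) subunit of the cytoplasmic ribosome of Saccharomyces cerevisiae that carry the numbers RPL1 to RPL34. Membership goes by gene symbol and gives 60 genes. Of these genes 59 had a spotted open reading frame (ORF) among the 13059 features common to all arrays and considered here, and the ORF of RPL26A was not analysed here. Of the 59, 57 had values on at least 3 arrays in each group and were tested. The other 2, RPL1B and RPL26B, were measured on only 2 wild-type arrays each. The genes lie on 14 chromosomes, 32 on the W strand and 28 on the C strand. Of the 60, 52 belong to 26 pairs of A and B copies left by an ancient genome duplication, and 8 are single-copy.

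Ribosomal protein genes are among the most heavily transcribed genes of growing yeast, and their promoters are bound by Rap1, Fhl1, Ifh1, Sfp1 and Hmo1. Many carry an intron. DNA polymerase epsilon, whose catalytic subunit is Pol2, copies DNA at the replication fork, and its association with a region in asynchronous cells depends on how often and for how long forks are present there. Rrm3 is a DNA helicase of the Pif1 family that travels with forks and helps them past stable protein-DNA complexes such as those at tRNA genes, telomeres and the ribosomal DNA.

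The study used chromatin immunoprecipitation on spotted microarrays (ChIP-chip) to look for places where replication forks pause. Haploid cells of the W303a background, a common laboratory strain, carried either DNA Pol2 or Rrm3 with a 13MYC tag and grew asynchronously in rich medium (YEPD). On each array the fragments pulled down through the MYC tag (the IP) were set against total genomic DNA (the input) in the other dye. The labels give 3 groups. They are the Pol2 IP from cells with no deletion named, called wild type here (4 arrays, 039, 086, 136 and 230), the Pol2 IP from cells labelled rrm3 delete (6 arrays, 040, 183, 137, 239, 240 and 182) and the Rrm3 IP (5 arrays, 041, 031, 088, 184 and 185). None of the labels describes an IP from untagged cells. The labels of array 086 name a second antibody, against H3K36me2, beside the MYC antibody.

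Every value is a log2 ratio of IP over input relative to the median of all features on its array, so that 0 marks the array median and 1 marks a ratio 2 times as high. The number of arrays limits the precision. Several arrays stood apart. Array 031 (Rrm3 IP) correlated with the other arrays at r between -0.07 and 0.23 across features, its middle 50% of features spanned -0.84 to 0.65, against -0.47 to 0.43 on array 088 and -0.42 to 0.50 on array 184, the widest of the other Rrm3 arrays, and results that rest on it are also given without it. Arrays 136 and 182 had quality flags on 49.7% and 54.0% of their spots, so that 30 and 26 of the genes were measured there. The labelled dyes of array 136 oppose the deposited ratio, which was used because the labelled direction correlates negatively with every other array (r from -0.54 to -0.15). As a check of the labels, the input signal of RRM3 itself ranked at percentile 2.25 or lower on 5 of the 6 arrays labelled rrm3 delete, but at percentile 49.7 on array 239, which goes against its label. In wild type it ranked at percentile 30.9 or higher and on the Rrm3 arrays at 29.4 or higher. The RRM3 spot carried a quality flag on array 040 (percentile 0) and on wild-type array 136 (percentile 46.0). Its rank on these arrays is thus a weaker check.

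The gene bodies lay above the array median on nearly all arrays, and most clearly in the Rrm3 IP. Of the 57 genes 33 were higher in the Rrm3 IP than the array median, at an adjusted p under 0.05 (limma, Benjamini-Hochberg over all features) and 0 were lower, where 11.0% of all tested features were higher and 12.7% lower. Their median fitted value was 0.53, against -0.02 over all features. On the Pol2 arrays labelled rrm3 delete 11 genes were higher and 1 was lower, with a median of 0.22, where 9.39% of all features were higher and 6.95% lower. In the wild-type Pol2 IP 4 were higher and 0 lower, with a median of 0.29, where 0.937% of all features were higher and 2.37% lower. With array 136 in its labelled direction, 0 of 57 were called in wild type (7 at an unadjusted p under 0.05) and the median was 0.16, where 0.0404% of all features were higher. In that direction the rrm3 delete arrays gave 7 genes higher and 1 lower, where the shares of all features were 8.34% and 5.70%, and 31 higher in the Rrm3 IP, where it was 9.37%.

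Array 031 decided much of these counts, also in the Pol2 groups, because the fit estimates 1 spread per feature over all 3 groups. Without it 51 of 57 genes were higher in the Rrm3 IP (median 0.74), where 12.6% of all features were. In the Pol2 IP 12 were then higher and 1 lower in wild type, where 3.64% of all features were higher and 5.22% lower. The counts for rrm3 delete were 20 higher and 1 lower, where 14.7% of all features were higher and 11.6% lower. Of the 33 genes called in the Rrm3 IP, 32 were also called without array 031. RPL31A was the exception, at an adjusted p of 0.083 (limma). Leaving out array 184 in place of 031 left 21 genes called in the Rrm3 IP, where 4.94% of all features were higher.

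The medians of the genes on single arrays show the same order. They were 0.37, 0.23, 0.27 and 0.28 on wild-type arrays 039, 086, 136 and 230. On the 6 arrays labelled rrm3 delete they ran from 0.10 (array 240) to 0.31 (array 137). On Rrm3 arrays 041, 088, 184 and 185 they were 0.71, 0.95, 0.86 and 0.50, and on array 031 the median was -0.06. Every Rrm3 array but 031 thus had a higher median than every Pol2 array. The arrays were not scaled to a common spread. The share of the genes above the middle 50% of all features was 94.8%, 92.2%, 80.4% and 59.3% on arrays 041, 088, 184 and 185. On the Pol2 arrays it ran from 30.5% (array 240) to 64.4% (array 039), so that array 185 lay below array 039 by that measure. On array 031 29 of the 58 genes measured lay below 0, 16 of them at or below -1, while 7 lay at or above 1.

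**Figure D1:**
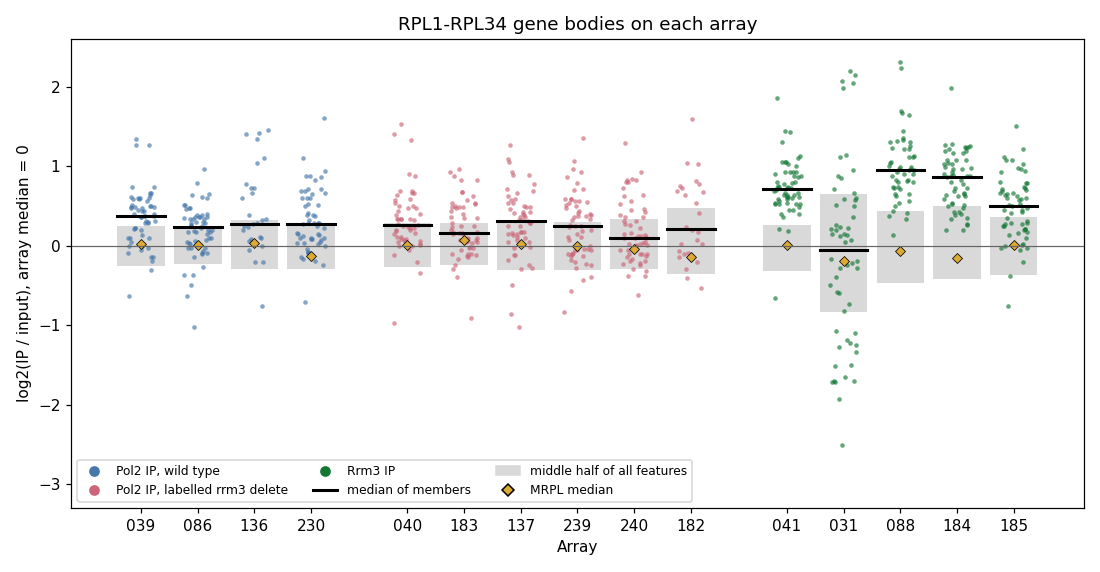
Values of the genes on each array (points, log2 of IP over input with the array median at 0), grouped by IP. Black lines are the medians of the genes, grey boxes the middle 50% of all features and diamonds the medians of genes for the mitochondrial large subunit. The medians of 4 Rrm3 arrays lie at 0.50 to 0.95, array 031 spreads from -2.51 to 2.19, and the Pol2 arrays have medians of 0.10 to 0.37.

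Single genes lay above 0 on every array that measured them more often than features in general. In wild type 35 of the 57 genes lay above 0 on every array that measured them, where 20.1% of all tested features did. On the arrays labelled rrm3 delete it was 22 genes, against 17.5% of all features. For Rrm3 it was 26, against 11.5%, and 49 without array 031, against 17.8%. The SD between arrays had a median over the genes of 0.21 in wild type, 0.20 on the arrays labelled rrm3 delete and 0.53 in the Rrm3 IP (0.31 without array 031).

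The calls of higher genes were nested. All 4 genes called in wild type (RPL3, RPL4B, RPL8A and RPL8B) were called in the other groups too. All 11 called higher on the arrays labelled rrm3 delete were also called in the Rrm3 IP. Another 22 were called in the Rrm3 IP and in neither Pol2 group. The groups differ in their number of arrays and in spread, so these counts alone do not show that the groups differ.

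**Figure D2:**
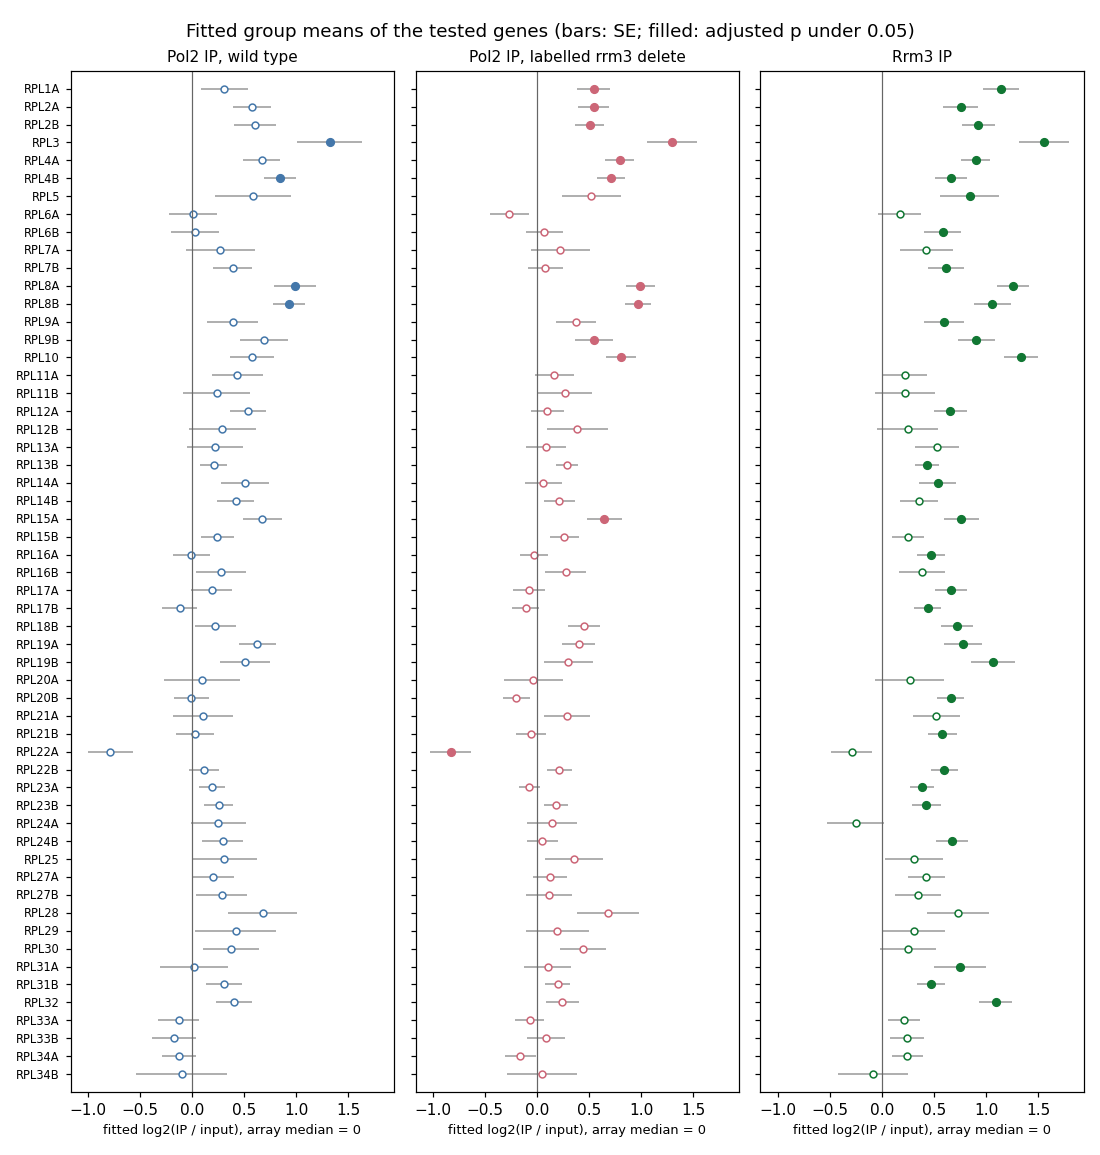
Fitted group means of the tested genes (1 of the 57 is not shown) in the 3 groups (log2 of IP over input, array median at 0), with standard errors as bars and filled points at an adjusted p under 0.05. RPL3 and the RPL8 pair lie at the right in all panels, RPL22A at -0.78 and -0.83 in the Pol2 groups, and 33 points are filled in the Rrm3 panel.

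The genes for proteins at the peptidyl transferase centre, where peptide bonds are formed, had the highest values. All 4 (RPL2A, RPL2B, RPL3 and RPL10) were called in the Rrm3 IP (median 1.13) and on the arrays labelled rrm3 delete (median 0.68), and 1 of 4 in wild type (median 0.59). Of all features 11.0%, 9.39% and 0.937% were called higher in these groups. Differences between roles were not tested. RPL3 (YOR063W, chromosome XV) encodes a protein that reaches towards the catalytic centre. It had the highest fitted value of the 57 in every group.

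RPL3 measured 1.34, 0.96 and 1.60 on wild-type arrays 039, 086 and 230. On the arrays labelled rrm3 delete it measured 1.53, 0.96, 1.27, 1.35 and 1.29 (040, 183, 137, 239 and 240), and on Rrm3 arrays 041, 088, 184 and 185 it measured 1.85, 2.31, 1.98 and 1.51. On array 031 it was 0.05. All arrays that measured it but 031 thus lay near 1 or above, and the groups overlapped. The fitted means were 1.32 ± 0.31 (SE, n = 3, limma adjusted p 0.0308) in wild type, 1.29 ± 0.24 (SE, n = 5, limma adjusted p 0.00182) on the arrays labelled rrm3 delete and 1.55 ± 0.24 (SE, n = 5, limma adjusted p 0.0012) in the Rrm3 IP. The ratio of IP to input for Rrm3 was 2.94 times the array median.

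RPL10 (YLR075W, chromosome XII) encodes a protein that joins the subunit late, in the cytoplasm. It measured 0.61, 0.35 and 0.82 on wild-type arrays 039, 086 and 230, and between 0.67 and 0.90 (median 0.80) on the 6 arrays labelled rrm3 delete. On Rrm3 arrays 041, 031, 088, 184 and 185 it measured 1.30, 0.85, 2.23, 1.26 and 1.08. Every Rrm3 array, array 031 included, lay above every wild-type array. Its fitted mean in the Rrm3 IP was 1.34 ± 0.16 (SE, n = 5, limma adjusted p 0.000251), the second highest. The RPL2 pair, for a protein next to the catalytic centre, was fitted at 0.58 and 0.60 in wild type, 0.54 and 0.51 on the rrm3 delete arrays, and 0.76 and 0.93 in the Rrm3 IP.

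The 5S particle, in which the proteins of RPL5 and the RPL11 pair bind the 5S ribosomal RNA before joining the subunit, gave lower values. Of its 3 genes 0 were called in the Pol2 groups (medians 0.43 in wild type and 0.27 on the arrays labelled rrm3 delete) and 1, RPL5, in the Rrm3 IP (median 0.22). Array 031 moved this group: without it all 3 were called in the Rrm3 IP and the median was 0.74. Of all features 0.937% were called higher in wild type, 9.39% on the arrays labelled rrm3 delete and 11.0% in the Rrm3 IP. Without array 031 the Rrm3 share was 12.6%. RPL5 (YPL131W, chromosome XVI) measured 1.44, 1.69, 1.16 and 0.94 on Rrm3 arrays 041, 088, 184 and 185 but -1.10 on array 031. Its wild-type values were 0.45, 0.33 and 0.86 (039, 086 and 230), below all Rrm3 arrays but 031.

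The stalk genes are the RPL1 pair, for the movable L1 stalk beside the exit site for tRNA, and the RPL12 pair, for the base of the stalk that recruits translation factors. Of the 3 tested, 0 were called in wild type (median 0.31), 1 on the arrays labelled rrm3 delete (0.39) and 2 in the Rrm3 IP (0.66). Among all features 0.937%, 9.39% and 11.0% were called higher. RPL1A (YPL220W, chromosome XVI) measured 0.36, 0.38 and 0.28 on wild-type arrays 039, 086 and 230 and 0.40 to 0.73 (median 0.53) on the arrays labelled rrm3 delete. Its Rrm3 values were 0.78, 2.19, 1.35, 0.80 and 0.71 (041, 031, 088, 184 and 185), all above the wild-type arrays. The fitted Rrm3 mean was 1.15 ± 0.17 (SE, n = 5, limma adjusted p 0.000945), and 0.91 without array 031, where this gene had its highest value.

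RPL1B, which was not tested, measured 0.49 and 0.24 on wild-type arrays 039 and 086, 0.12 to 0.67 on the rrm3 delete arrays and 0.63, 1.98, 0.83 and 0.62 on Rrm3 arrays 041, 031, 184 and 185. RPL26B, the other untested gene, measured -0.05 and -0.04 on wild-type arrays 039 and 230, -0.30 to 0.25 on the arrays labelled rrm3 delete and 0.18 to 2.07 on the 5 Rrm3 arrays. Both were thus above 0 on every Rrm3 array that measured them.

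Genes for proteins that line the tunnel through which the new peptide leaves, or that surround its mouth, included genes called higher and 1 called lower. Of 9 tested, 1 was higher in wild type (RPL4B), the rrm3 delete arrays gave 2 higher and 1 lower, and 7 were higher in the Rrm3 IP. Their medians were 0.19, 0.20 and 0.60. The shares of all features higher were 0.937%, 9.39% and 11.0%, with 6.95% lower on the arrays labelled rrm3 delete. The RPL4 pair encodes a protein whose loop forms part of the tunnel wall. RPL4A (YBR031W, chromosome II) was fitted at 0.67 in wild type, 0.79 on the arrays labelled rrm3 delete and 0.90 in the Rrm3 IP. RPL4B (YDR012W, chromosome IV) was fitted at 0.84, 0.71 and 0.67.

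RPL4B measured 0.63, 0.64 and 0.69 on wild-type arrays 039, 086 and 230 and 1.41 on array 136. Turning array 136 to its labelled direction therefore took the wild-type fitted value of RPL4B from 0.84 ± 0.15 (SE, n = 4, limma adjusted p 0.00698) to 0.16 (limma adjusted p 0.93). RPL8B, measured at 1.10 on array 136, likewise went from 0.93 to 0.33. RPL25, for the protein at the tunnel mouth where the signal recognition particle docks, measured -1.70 on array 031 and 0.35 to 1.07 on the other Rrm3 arrays, and its fitted Rrm3 mean was 0.31 with array 031 and 0.79 without it.

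RPL22A (YLR061W, chromosome XII) was the only one of the 57 called lower in any group, with all arrays or without array 031. Its product sits near the tunnel mouth and is not essential for growth. It measured -0.64, -1.02, -0.76 and -0.71 on wild-type arrays 039, 086, 136 and 230, and -0.97, -0.91, -0.86, -0.83 and -0.62 on arrays 040, 183, 137, 239 and 240 labelled rrm3 delete. On Rrm3 arrays 041, 088 and 184 it measured 0.21, 0.13 and 0.27, and on 031 and 185 it was -1.34 and -0.76. All Pol2 arrays were thus below 0, while the Rrm3 arrays were split. The fitted mean was -0.78 ± 0.22 (SE, n = 4, limma adjusted p 0.0601) in wild type, -0.83 ± 0.20 (SE, n = 5, limma adjusted p 0.00835) on the arrays labelled rrm3 delete and -0.29 ± 0.20 (SE, n = 5, limma adjusted p 0.295) in the Rrm3 IP. Without array 031 it was called lower in wild type too, at -0.78 (limma adjusted p 0.00576). The call on the arrays labelled rrm3 delete was lost without the flag filter, at -0.36 (limma adjusted p 0.485). It was also lost with forward arrays alone (IP in Cy5, without array 136), at -0.89 (limma adjusted p 0.11).

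Genes for proteins that take part in bridges to the small subunit (the RPL19, RPL23 and RPL24 pairs and RPL30) gave 0 of 7 calls in either Pol2 group and 5 of 7 in the Rrm3 IP. Over all features 0.937% were called higher in wild type, 9.39% on the arrays labelled rrm3 delete and 11.0% in the Rrm3 IP. At such shares 0 of 7 does not set these genes apart in the Pol2 groups. Medians were 0.29 in wild type, 0.18 on the arrays labelled rrm3 delete and 0.43 in the Rrm3 IP (0.80 without array 031). RPL19B (YBL027W, chromosome II) was highest among them in the Rrm3 IP at 1.07 ± 0.21 (SE, n = 5, limma adjusted p 0.00445), from values of 0.75, 1.11, 1.64, 1.24 and 0.51 on arrays 041, 031, 088, 184 and 185. In wild type it ranged from -0.37 on array 086 to 1.45 on array 136, so that the groups overlapped.

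RPL24A and RPL30 are neighbours on chromosome VII, transcribed away from each other, and both were low on array 031. RPL24A (YGL031C) measured -0.66, -1.72, 0.62 and 0.45 on Rrm3 arrays 041, 031, 088 and 185, for a fitted mean of -0.25 ± 0.28 (SE, n = 4, limma adjusted p 0.536) that became 0.16 without array 031. RPL30 (YGL030W), whose protein also binds its own transcript and blocks its splicing, measured -1.51 on array 031 and 0.90, 1.03 and 0.59 on arrays 088, 184 and 185. Its fitted Rrm3 mean was 0.25 with array 031 and 0.80 without it. RPL24B, the other copy, was called in the Rrm3 IP at 0.67.

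Among the remaining 31 genes 2 were higher in wild type, 4 on the arrays labelled rrm3 delete and 14 in the Rrm3 IP, with medians of 0.22, 0.13 and 0.48. The shares of all features were 0.937%, 9.39% and 11.0%, so that the 4 of 31 lay near theirs. The RPL8 pair, for a protein needed early in assembly of the subunit, stood out in all groups. RPL8A (YHL033C, chromosome VIII) measured 1.26, 0.79 and 1.10 on wild-type arrays 039, 086 and 230, 0.75 to 1.33 (median 0.97) on the rrm3 delete arrays, and 1.05, 2.14, 1.44, 0.88 and 0.97 on Rrm3 arrays 041, 031, 088, 184 and 185. The groups overlapped, and no array lay below 0.75. The fitted means were 0.99 ± 0.20 (SE, n = 3, limma adjusted p 0.0111), 0.99 ± 0.14 (SE, n = 6, limma adjusted p 0.000149) and 1.26 ± 0.15 (SE, n = 5, limma adjusted p 0.000251). RPL8B (YLL045C, chromosome XII) was fitted at 0.93, 0.97 and 1.06.

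RPL32 (YBL092W, chromosome II) was the fifth highest gene in the Rrm3 IP, at 1.09 ± 0.16 (SE, n = 5, limma adjusted p 0.00058), with 1.10, 2.05, 1.25, 0.72 and 0.57 on arrays 041, 031, 088, 184 and 185. In wild type it measured 0.74, 0.26, 0.25 and 0.38 (039, 086, 136 and 230), for a fitted value of 0.41 that was not called (limma adjusted p 0.238). RPL28 (YGL103W), the gene in which resistance to cycloheximide arises, had 1.03, 1.67, 1.23 and 1.07 on Rrm3 arrays 041, 088, 184 and 185 but -1.50 on array 031. It was called in no group with array 031 included. Without that array its fitted Rrm3 mean was 1.25 ± 0.13 (SE, n = 4, limma adjusted p 3.32e-05), the fourth highest.

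Besides RPL22A a minority of the genes had fitted values below 0 in each group, and only some of the lowest are named here. In wild type RPL33B and RPL33A were fitted at -0.17 and -0.13, next above RPL22A. On the arrays labelled rrm3 delete RPL6A was fitted at -0.26 and RPL20B at -0.20. RPL34B was fitted in the Rrm3 IP at -0.08 because of array 031, where it measured -2.51, against 0.74, 0.80, 0.42 and 0.02 on arrays 041, 088, 184 and 185. None of these 5 passed the test with all arrays. The 4 genes of the RPL33 and RPL34 pairs were called in no group with all arrays.

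**Figure D3:**
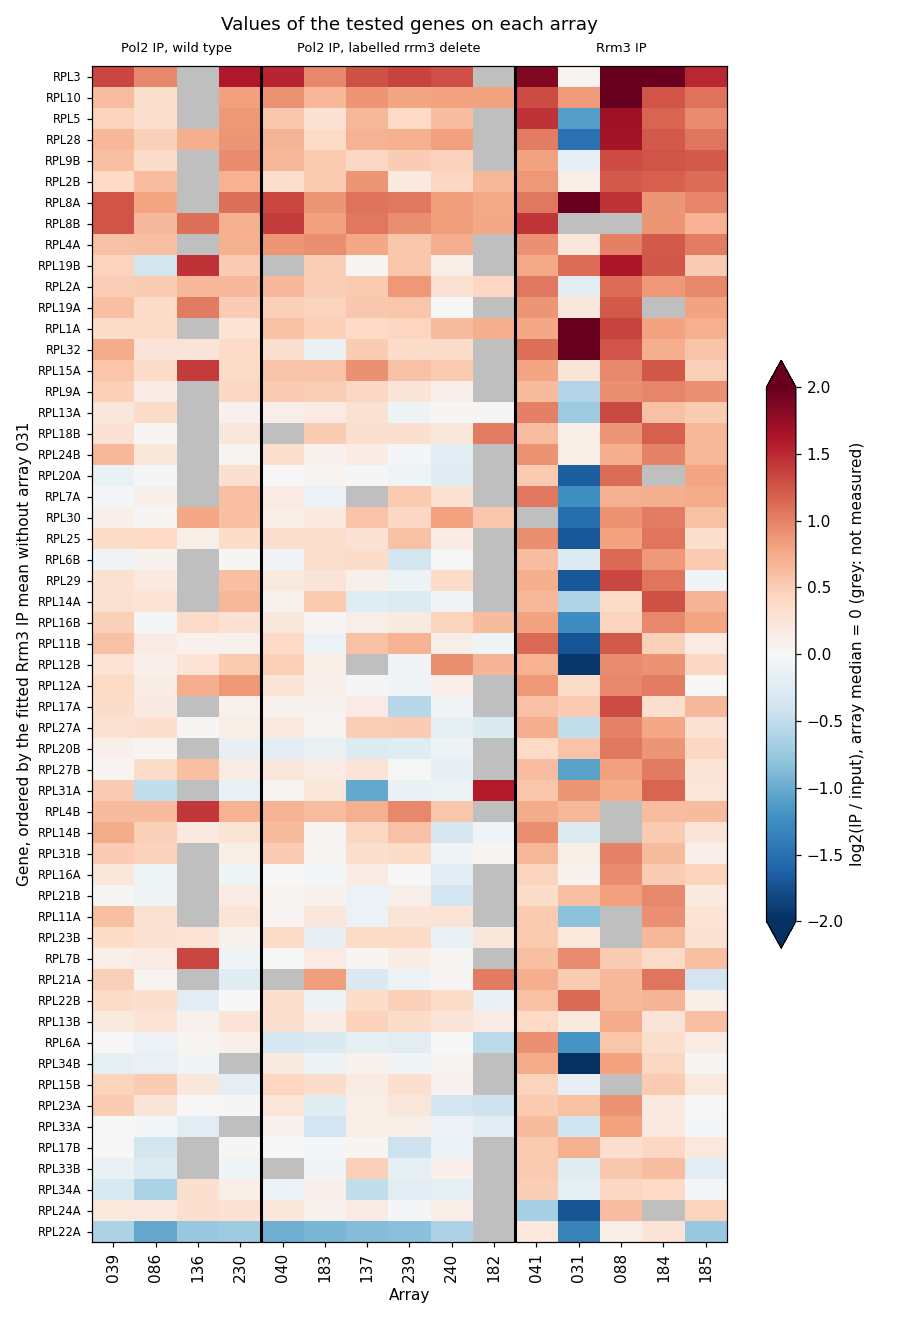
Values of the tested genes (rows, 1 of the 57 not shown, ordered by fitted Rrm3 mean without array 031) on each array (columns, in 3 groups), as log2 of IP over input with the array median at 0. Colours are capped at -2 and 2 and grey marks values that were not measured. RPL3 is red on all arrays that measured it but 031, RPL22A at the foot is blue on all Pol2 arrays that measured it, and array 031 holds most of the dark blue cells.

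The first difference tested was that between Pol2 on the arrays labelled rrm3 delete and Pol2 in wild type, which asks whether loss of the helicase changes where the polymerase is found. No gene passed the test. In limma 0 of 57 passed in either direction, where 0.557% of all features were higher and 0.00% lower, and 0 had an unadjusted p under 0.05. The adjusted p of each was 0.9997. The median difference was -0.04, and 21 of 57 differences were above 0. With array 136 in its labelled direction the median was 0.04 and the count again 0 (0 at an unadjusted p under 0.05). Without array 031 it was also 0 (1 at an unadjusted p under 0.05), where 1.91% of all features were higher.

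The largest differences were within 2 standard errors of 0. RPL33B, RPL1A, RPL18B and RPL10 were fitted higher on the arrays labelled rrm3 delete by 0.25, 0.24, 0.23 and 0.23, each with an SE of 0.25 to 0.28. RPL14A, RPL12A, RPL7B and RPL6A differed by -0.45, -0.44, -0.31 and -0.27, with SEs of 0.24 to 0.30. RPL14A measured 0.31, 0.28 and 0.66 on wild-type arrays 039, 086 and 230 and 0.08, 0.53, -0.25, -0.28 and -0.06 on arrays 040, 183, 137, 239 and 240. Those ranges overlapped through array 183. For RPL3 the difference was -0.03 ± 0.39 (SE), an error larger than most fitted differences of the 57 genes.

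The second difference was that between the Rrm3 IP and the wild-type Pol2 IP, which share no arrays but differ in the tagged protein. Fitted values were higher in the Rrm3 IP for 48 of 57 genes, with a median difference of 0.22 against -0.01 over all features. In limma 0 genes passed in either direction (8 at an unadjusted p under 0.05, smallest adjusted p 0.315), where 0.00808% of all features were higher. Without array 031 the median difference was 0.48 and 55 of 57 were above 0. Again 0 passed in limma (33 at an unadjusted p under 0.05, smallest adjusted p 0.123), where 0.00% of all features passed the adjusted threshold. The share of all features at an unadjusted p under 0.05 is not given here, so the 8 and 33 have no share beside them.

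The separation of the arrays themselves can be counted without that test. On the 4 Rrm3 arrays other than 031, 21 of 57 genes (36.8%) lay above every wild-type array, where 5.53% of all tested features did. Against the arrays labelled rrm3 delete it was 22 genes (38.6%), where 3.30% of all features did. With array 031 included 5 genes (RPL1A, RPL10, RPL17B, RPL20B and RPL21B) lay above every wild-type array, where 2.71% of all features did. Features measured on fewer arrays meet this rule more easily.

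RPL1A and RPL10 had the largest differences, 0.84 ± 0.28 (SE, limma adjusted p 0.329) and 0.76 ± 0.26 (SE, limma adjusted p 0.338), followed by RPL31A at 0.73 and RPL32 at 0.68. RPL17B, RPL20B and RPL21B were near or below 0 in both Pol2 groups but not in the Rrm3 IP. RPL20B (YOR312C, chromosome XV) measured 0.10, 0.06 and -0.17 on wild-type arrays 039, 086 and 230, between -0.28 and -0.10 on the rrm3 delete arrays, and 0.40, 0.57, 1.05, 0.88 and 0.42 on Rrm3 arrays 041, 031, 088, 184 and 185. No Pol2 array reached the lowest Rrm3 array, and the fitted difference was 0.67 ± 0.21 (SE, limma adjusted p 0.315).

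The lowest differences were those of RPL24A (-0.50), RPL11A (-0.21), RPL4B (-0.18) and RPL30 (-0.12). Those of RPL24A, RPL11A and RPL30 were -0.09, 0.17 and 0.42 without array 031, and that of RPL4B was 0.51 with array 136 in its labelled direction.

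The A and B copies of a protein gene lie at different places in the genome and gave similar values. In 24 pairs with both copies tested, the absolute gap between copies had a median of 0.11 in wild type, 0.16 on the arrays labelled rrm3 delete and 0.23 in the Rrm3 IP. Between any 2 of the tested genes it was 0.29, 0.29 and 0.33. The median SE of a gene was 0.21, 0.17 and 0.18, so that the median gap lay below it in both Pol2 groups but above it in the Rrm3 IP. Copies with near-identical coding sequence can bind each other's spots, so a part of this likeness may be shared signal, which was not tested.

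Some pairs differed on nearly every array. RPL22A lay below RPL22B on all 14 arrays that measured both, with gaps of 0.90 in wild type and 1.04 on the arrays labelled rrm3 delete, the largest of any pair in both groups. RPL22B measured 0.37, 0.33, -0.21 and -0.01 on wild-type arrays 039, 086, 136 and 230. RPL9A lay below RPL9B on all 13 arrays with both, though both were above 0 in the fits. RPL15A lay above RPL15B on 12 of 13 arrays, at 0.67 against 0.24 in wild type and 0.76 against 0.25 in the Rrm3 IP. The largest gap in the Rrm3 IP, 0.92, was that of RPL24, where the A copy was low on arrays 031 (-1.72) and 041 (-0.66).

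In the Rrm3 IP both copies were called in 8 of 24 pairs and 1 copy in 12. On the arrays labelled rrm3 delete it was both in 3 and 1 copy in 3, RPL22A (called lower) among them. In wild type it was both in 1 (RPL8) and 1 copy in 1 (RPL4). Of all single features 11.0%, 9.39% and 0.937% were called higher in the Rrm3 IP, on the arrays labelled rrm3 delete and in wild type. A share for pairs of features is not given here. The 8 single-copy genes (RPL3, RPL5, RPL10, RPL25, RPL28, RPL29, RPL30 and RPL32) had medians of 0.50 in wild type, 0.48 on the arrays labelled rrm3 delete and 0.79 in the Rrm3 IP, where the 49 tested genes with a copy had 0.25, 0.17 and 0.52. All 8 were fitted above 0 in all 3 groups.

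**Figure D4:**
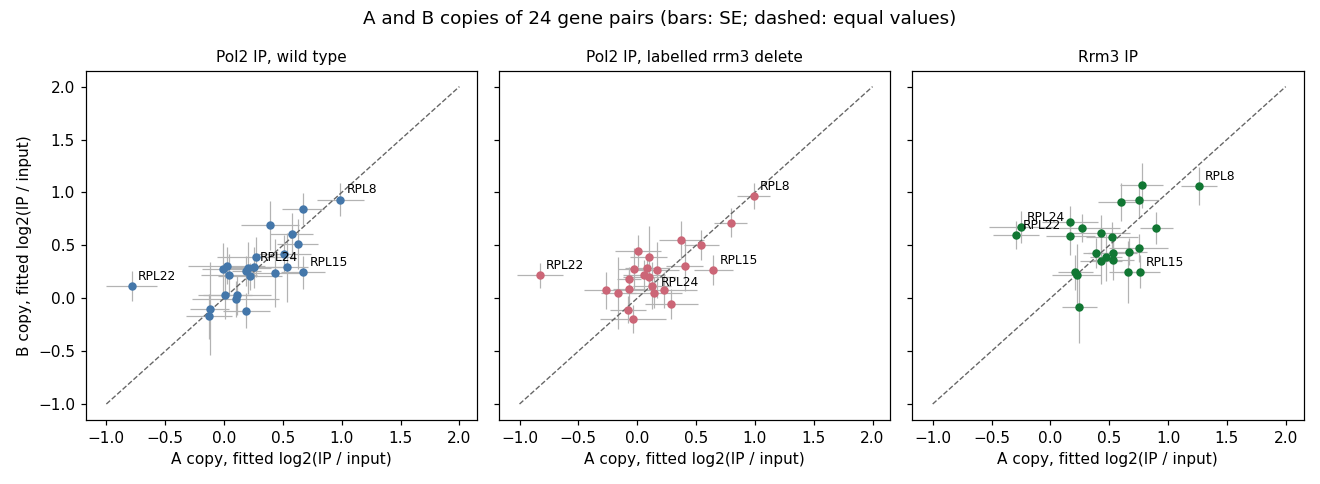
Fitted value of the A copy (horizontal) and the B copy (vertical) of 24 pairs in the 3 groups, as log2 of IP over input, with standard errors as bars and the line of equal values dashed. Median gaps are 0.11, 0.16 and 0.23, RPL22 lies far from it in the Pol2 panels (gaps of 0.90 and 1.04) and RPL24 in the Rrm3 panel (0.92).

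The arrays also carry the intergenic regions, which allow the gene body to be set against its flanks. A region is named for the ORF on its left, and the sides were turned to the direction of transcription. Upstream regions, which hold the promoters, had medians of -0.11 in wild type, -0.16 on the arrays labelled rrm3 delete and 0.09 in the Rrm3 IP over 49 tested. Downstream regions had 0.16, 0.16 and 0.41 over 49 tested. Gene bodies, at 0.29, 0.22 and 0.53, were the highest of the 3 in every group.

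Gene bodies lay above their own upstream region in 42 of 48 cases in wild type, 43 of 48 on the arrays labelled rrm3 delete and 42 of 48 in the Rrm3 IP. Over all ORFs with a tested upstream region the ORF was higher in 59.9%, 60.02% and 54.1% of cases. The median step from upstream region to gene body was 0.40, 0.38 and 0.46, against 0.07, 0.08 and 0.05 over all ORFs. Gene bodies lay above their downstream region in 34, 31 and 32 of 46 cases, and the median step was 0.12, 0.14 and 0.13. Over all ORFs with a tested downstream region it was 54.1%, 55.0% and 40.1% of cases, with median steps of 0.03, 0.04 and -0.12.

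Of upstream regions 0 were called higher in either Pol2 group, 1 was lower in wild type and 4 on the arrays labelled rrm3 delete. For Rrm3 it was 6 higher and 3 lower. Of downstream regions 0 were called in wild type, the rrm3 delete arrays gave 4 higher and 3 lower, and 15 were higher and 1 lower in the Rrm3 IP. Of all features 0.937% were higher and 2.37% lower in wild type, 9.39% and 6.95% for rrm3 delete, and 11.0% and 12.7% for Rrm3. With 49 regions tested on each side, the rrm3 delete counts of 4 lower upstream and of 4 higher and 3 lower downstream lay near these shares. So did the 6 higher upstream in the Rrm3 IP. Without array 031 the Rrm3 counts were 5 higher and 2 lower upstream, and 30 higher and 0 lower downstream. In that fit 12.6% of all features were higher and 13.6% lower, so that the 5 higher upstream were near the share.

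The upstream regions were also split by the direction of the neighbouring gene. The 24 tested regions shared with a gene transcribed the other way had a median of -0.10 in wild type, -0.09 on the arrays labelled rrm3 delete and 0.09 in the Rrm3 IP. The 24 behind a gene transcribed the same way had -0.12, -0.24 and 0.07. Downstream, 19 regions facing the end of another gene had 0.20, 0.15 and 0.49, and 28 in front of a gene transcribed the same way had 0.18, 0.16 and 0.34.

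The region downstream of RPL3, between it and YNG1, was the highest flank in the Rrm3 IP at 1.45 ± 0.21 (SE, limma adjusted p 0.000525), close to the 1.55 of RPL3 itself. It was also the highest flank downstream of any gene on the arrays labelled rrm3 delete (0.80) and was fitted at 0.75 in wild type. In the Rrm3 IP it was followed by the regions downstream of RPL31B (1.11), RPL9B (0.97) and RPL14B (0.94). By the systematic names, the region downstream of RPL14B lies between the genes nearest to the centromere on each arm of chromosome VIII. Downstream of RPL24A (-0.61) and RPL23A (-0.39) the Rrm3 values were lowest.

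In the wild-type Pol2 IP the highest downstream regions were those of RPL31B (0.76), RPL18B (0.75), RPL3 (0.75) and RPL19A (0.72), and the lowest those of RPL27A (-0.53) and RPL34A (-0.37). On the arrays labelled rrm3 delete RPL3 (0.80) was followed by RPL9A (0.64), RPL31B (0.51) and RPL19A (0.51). The lowest there were those of RPL23A (-0.86) and RPL14A (-0.69).

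No upstream region was called higher in a Pol2 group. High values in wild type included those of RPL24B (0.52), RPL21A (0.31) and RPL29 (0.19), and on the arrays labelled rrm3 delete those of RPL26B (0.28), RPL24B (0.26) and RPL20A (0.21). In the Rrm3 IP they included those of RPL20A (0.98, not called), RPL4A (0.61, limma adjusted p 0.0232) and RPL29 (0.59, limma adjusted p 0.0322). The lowest in both Pol2 groups were those of RPL22A (-0.75 and -0.84) and RPL4B (-0.70 and -0.94), and the region upstream of RPL22A was the 1 called lower in wild type (limma adjusted p 0.047). RPL22A was thus low over both its body and its upstream region, whereas RPL4B was high over its body and low upstream. In the Rrm3 IP the lowest were those of RPL7B (-0.65) and RPL22A (-0.57).

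**Figure D5:**
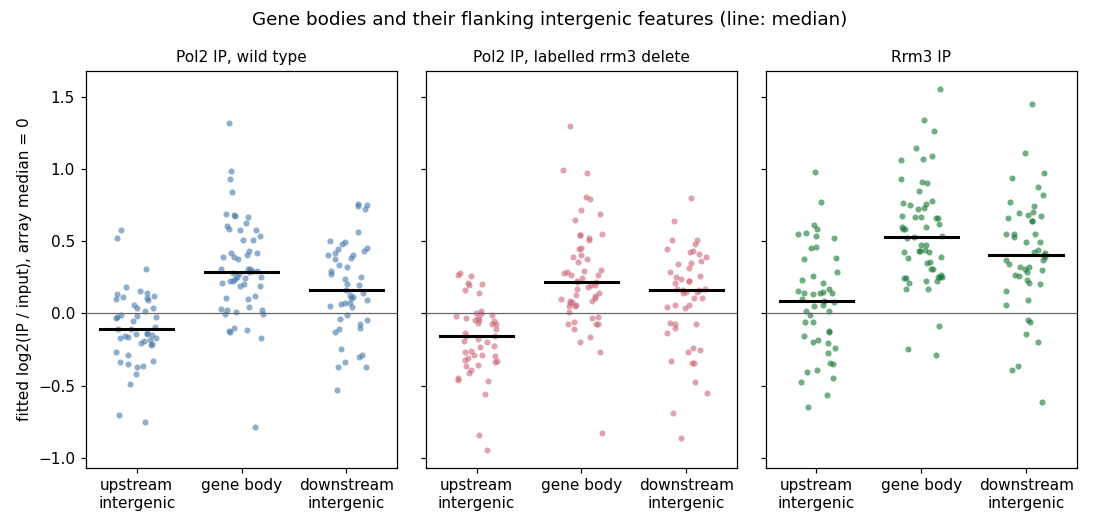
Fitted values of upstream intergenic regions, gene bodies and downstream intergenic regions in the 3 groups (points, log2 of IP over input with the array median at 0), with medians as black lines. Medians run -0.11, 0.29 and 0.16 in wild type, -0.16, 0.22 and 0.16 on the rrm3 delete arrays and 0.09, 0.53 and 0.41 in the Rrm3 IP.

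Genes for the small (40S) subunit were close to these genes. Their medians over 52 tested were 0.25 in wild type, 0.20 on the arrays labelled rrm3 delete and 0.54 in the Rrm3 IP. Called higher were 2, 6 and 21 (37 in the Rrm3 IP without array 031). Of all features 0.937%, 9.39% and 11.0% were higher (12.6% in the Rrm3 IP without array 031). The 6 of 52 on the arrays labelled rrm3 delete lay near that share. RPS2 (1.16) and RPS6B (1.11) led in the Rrm3 IP and RPS30A (-0.06) and RPS20 (0.00) were lowest. In the Pol2 groups RPS14A (1.18) and RPS2 (0.81) led in wild type and RPS31 (0.72) and RPS3 (0.66) on the arrays labelled rrm3 delete, with RPS30A lowest in both (-0.57 and -0.67). The rest of the large subunit, RPL35 to RPL43 and the acidic stalk proteins (RPP), had medians of 0.16, -0.07 and 0.52 over 17 tested, with 0, 2 and 11 called higher. Set against the same shares, the 2 of 17 on the arrays labelled rrm3 delete also lay near 9.39%. RPP1B (0.91) and RPL36B (0.89) led in the Rrm3 IP and RPL37A (0.17) and RPL41B (0.17) were lowest.

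Genes for the large subunit of the mitochondrial ribosome, a separate set of proteins made for translation inside mitochondria, lay near the array median. Their medians over 32 tested were -0.05, -0.02 and -0.13. In wild type 0 were called in either direction (5 at an unadjusted p under 0.05), the rrm3 delete arrays gave 2 higher and 2 lower, and 1 was higher and 5 lower in the Rrm3 IP. The shares of all features were 9.39% higher and 6.95% lower for rrm3 delete and 11.0% higher and 12.7% lower for Rrm3. MRPL4 (1.49) and MRPL37 (1.13) were the 2 called higher on the arrays labelled rrm3 delete, and MRPL20 (0.54) the 1 in the Rrm3 IP.

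The genes of the regulators themselves (RAP1, FHL1, IFH1, SFP1, CRF1, HMO1, TOR1, TOR2, SCH9 and UTP22) had medians of 0.01, -0.03 and 0.00 over 10 tested. In wild type 0 were called (2 at an unadjusted p under 0.05). On the rrm3 delete arrays IFH1 was lower (-0.48), and in the Rrm3 IP SFP1 was (-0.77). Of all features 6.95% and 12.7% were lower in these groups, so that these calls among 10 genes lay near the shares. HMO1 (0.89 in wild type and 0.37 on the arrays labelled rrm3 delete) and TOR2 (0.55 in the Rrm3 IP) had the highest values and were not called.

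The input signal of the genes was not extreme. Averaged over arrays as a median, it ranked between percentile 18.9 and percentile 94.3 of spots, with a median over the genes of 59.4, and 0 spots of these genes were saturated. A failed PCR was recorded for a spot of 4 genes.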

How the data were processed

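The 16 scanner files hold deposited intensity values, namely the median foreground and background signals per spot in each channel, quality flags and failed-PCR codes. The series also holds log2 ratios deposited by the authors, with 1 column per array, which per the series text were median-normalised. The scanner and software, and the build, were not given in the sources used here. Background-subtracted medians of unflagged spots with signals above 0 gave log2(IP/input), averaged over spots of a name and centred on each array's median, without loess. Group means and a dye term were fitted to 15 arrays with limma 3.58.1 (R 4.3.3) over 12380 features measured on at least 3 arrays per group. Two-sided p-values were adjusted over all features by Benjamini-Hochberg, with a threshold of 0.05. Array 231, whose labels contradict each other on the deletion, entered no comparison. Errors are standard errors. Symbols, neighbours and strand came from the R64 gene table, and no coordinates or sequences are given.

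Per the series text a dye swap is a technical replicate, but the arrays made from 1 extract are not named, so p-values measure the spread between arrays. The genes, lists and roles were chosen with earlier results of these data known. Genes given in full were the 6 highest and 3 lowest per group and the 4 highest and 4 lowest per difference; other genes of a role were named beside them. The fit was tested on simulated data. Alternatives changed the background correction, normalisation, filters, dye term and arrays. Results for 1 of the genes are not reported by name here, and it is counted in the totals and medians.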

Additional observations from a re-analysis of the deposited data

Results flagged for a closer look

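For the genes described in full and the group medians, 63 sets of 4 to 10 arrays were examined for a highest or lowest array that lay far from the others for the range of its group. In 5 of them an array did, and chance flags about 1 in 20 such sets. RPL4B in the wild-type Pol2 IP was highest on array 136, at 1.41, where the other wild-type arrays gave 0.63 to 0.69. RPL32 on the arrays labelled rrm3 delete was lowest on array 183, at -0.131, where the others gave 0.34 to 0.50. In the Rrm3 IP 3 genes were lowest on array 031, with RPL28 at -1.5, RPL30 at -1.51 and RPL34B at -2.51. Without array 031 their fitted values were 1.25, 0.80 and 0.50.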

How the results depend on the processing

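Of the medians and counts of the 57 genes under all alternatives, 266 values stayed within their bounds and 24 did not. The wild-type Pol2 count of 4 called genes became 0 with array 136 in its labelled direction, 0 with forward arrays alone, 0 among features measured on every grouped array (8 of the genes) and 13 without arrays 031 and 041. Its median of 0.287 became 0.159 with array 136 as labelled and 0.205 among features measured on every array. The count of 12 on the arrays labelled rrm3 delete became 22, 2 and 1 without arrays 031 and 041, with forward arrays alone and among features measured on every array. The Rrm3 count of 33 became 9 with forward arrays alone and 4 among features measured on every array, where only 8 of the genes were tested. These counts pool both directions, so that the 13 were 12 higher and 1 lower and the 22 were 20 higher and 2 lower. Shares of all features are given above for some of these settings only, so the changes in count do not show a change particular to these genes. The median difference of the arrays labelled rrm3 delete from wild type, -0.0393, became 0.0354 with array 136 as labelled, 0.0458 with forward arrays alone and -0.0921 with loess. That of the Rrm3 IP from wild type, 0.219, became 0.456 without arrays 031 and 041.

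Leaving out 1 array in turn gave 1 to 13 called genes in wild type, with 1 without array 039, 2 without 230, 7 without 088 and 13 without 031. It gave 8 to 21 on the arrays labelled rrm3 delete (21 without 031) and 21 to 51 in the Rrm3 IP (21 without 184, 51 without 031). These counts also pool both directions, and for most arrays left out no share of all features stands beside them. Both differences stayed at 0 called. Medians ran from 0.249 to 0.326, 0.17 to 0.23 and 0.456 to 0.736 in the groups. For the differences they ran from -0.0923 to -0.00215 (arrays labelled rrm3 delete) and from 0.116 (without array 088) to 0.484 (without array 031).

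Among genes given in full 22 values changed sign, none of them called with all arrays. RPL24A in the Rrm3 IP became 0.539 without arrays 031 and 041 and 0.0131 without the flag filter, and RPL34B became 0.442 and, with no background subtraction, 0.0227. Leaving out 1 array, they ran from -0.571 to 0.164 and from -0.332 to 0.497. RPL7B in the first difference became 0.353 with array 136 as labelled and 0.00702 without arrays 136 and 182 (-0.489 to 0.00702 leaving out 1 array). In the second difference, without arrays 031 and 041, RPL24A became 0.286, RPL11A 0.175 and RPL30 0.423. RPL30 became 0.119 with array 136 as labelled, 0.0506 with no background subtraction, 0.0945 with loess and 0.13 without the flag filter, and RPL4B became 0.507 with array 136 as labelled, 0.028 without arrays 136 and 182 and 0.0646 with forward arrays alone. Leaving out 1 array, RPL11A ran from -0.449 to 0.168, RPL30 from -0.465 to 0.423 and RPL4B from -0.247 to 0.028. The causes were not tested. No paired analysis was possible because the array numbers are not shared between groups.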

Other observations

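Array 231, a Pol2 IP whose title names no deletion and whose description names the rrm3 deletion, measured 59 of the genes. Its median over them was 0.19, with 42 above 0 and a range of -0.90 (RPL22A) to 1.04 (RPL3). RPL8A measured 0.91, RPL10 0.76 and RPL4B 0.70 there. The upstream regions had a median of -0.22 and the downstream regions 0.02 on that array. The input signal of RRM3 ranked at percentile 20.9.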
